A study of Mus musculus with 6 samples.

Results

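The genes described here mark the cells that make and hold the connective tissue of the liver: 7 markers of hepatic stellate cells (*Lrat*, *Reln*, *Des*, *Hgf*, *Ecm1*, *Colec11* and *Pdgfrb*) and 3 markers of fibroblasts in general (*Dcn*, *Lum* and *Dpt*). They are 10 of the 56691 genes counted, chosen by symbol at a time when their CPM in both groups was known from earlier work on the same libraries. Their levels and fold changes between the groups therefore count as used in the choice and are given as a description, without a p-value. Poly(A) RNA of whole liver was sequenced from 6 pregnant mice (dams) in late pregnancy that had all been fed a high-fructose diet (HFrD) while pregnant. The 3 KPF dams (replicates 1, 2 and 3) were h*Chrebp*-KO, *Chrebp* flox/flox animals with 1 copy of Alb-Cre. The 3 WPF dams (replicates 2, 3 and 4) are named WT in the sample labels and *Chrebp* flox/flox without Cre in the methods of the study, so that by the methods both groups carry the floxed allele. The age of the dams was not given in the sources used here. Alb-Cre is driven by the albumin promoter and is active in hepatocytes, so stellate cells and fibroblasts were not the cells targeted. Which cells the reads of each marker came from was not measured.

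Hepatic stellate cells lie between the sinusoidal endothelium and the hepatocytes and store most of the vitamin A of the body as retinyl esters. When the liver is injured they lose this store, gain contractile proteins and lay down matrix. Fibroblasts around the portal vessels and in the capsule form a separate, smaller population that makes proteoglycans and elastic fibre proteins. Because whole liver was sequenced, more or fewer cells of a type and more or less RNA per cell cannot be told apart.

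The libraries held between 10694496 and 14496630 reads counted on genes, and values below are CPM (read counts put on 1 scale across the libraries by the TMM method) unless FPKM (the count scaled by exonic length and library total) is named. *Mlxipl*, the gene of ChREBP, had 177, 693 and 839 CPM in the KPF dams, against 985, 1272 and 878 CPM in the WPF dams (replicates always in the order of their numbers). No KPF library reached the lowest WPF library, but KPF replicate 3 lay close to WPF replicate 4, and the log2 fold change was -0.87 (SE 0.53, adjusted p = 0.577 by edgeR's quasi-likelihood test). By the methods of the study the knockout removes exon 2, while these counts cover the whole gene and do not measure that exon. The study reported lower ChREBP mRNA and protein in h*Chrebp*-KO livers by qRT-PCR, Western blot and immunofluorescence. KPF replicate 2 stood apart in muscle RNA, since the 9 striated muscle markers summed to 3864 CPM there and to between 5.26 and 12.7 CPM in the other 5 libraries. KPF replicate 1 was the highest in the 7 smooth muscle markers, with a sum of 139 CPM against 16.7 to 50.4 CPM elsewhere. Each of these libraries is therefore also left out below. The hepatocyte markers *Alb*, *Ttr*, *Apoa1* and 5 others summed to between 79169 and 176043 CPM, as the tissue label says. *Gfap*, used as a marker of stellate cells in rodents, was near the limit of counting in these whole-liver libraries, at 0 to 0.570 CPM.

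RefSeq promoters (250 bases before to 50 bases after the start of the gene, build GRCm38.p6) were at hand for 7 of the 10 markers. *Des* and *Dpt* are shown because their group means differed most, *Reln* because it was the only stellate marker whose groups did not overlap, and *Lrat* because it was the only marker with a lower mean in KPF. Each is written from 5′ to 3′ along the gene, with the motifs searched for, which are spelled out after the sequences, in capitals wherever they occur on either strand.
Des promoter, chr1:75360042-75360341, plus strand: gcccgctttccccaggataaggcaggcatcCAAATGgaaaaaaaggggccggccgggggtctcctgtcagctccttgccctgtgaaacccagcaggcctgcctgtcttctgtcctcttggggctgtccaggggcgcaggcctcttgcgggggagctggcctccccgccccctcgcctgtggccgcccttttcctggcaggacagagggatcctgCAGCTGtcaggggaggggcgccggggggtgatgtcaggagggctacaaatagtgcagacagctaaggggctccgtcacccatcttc
Dpt promoter, chr1:164796413-164796712, plus strand: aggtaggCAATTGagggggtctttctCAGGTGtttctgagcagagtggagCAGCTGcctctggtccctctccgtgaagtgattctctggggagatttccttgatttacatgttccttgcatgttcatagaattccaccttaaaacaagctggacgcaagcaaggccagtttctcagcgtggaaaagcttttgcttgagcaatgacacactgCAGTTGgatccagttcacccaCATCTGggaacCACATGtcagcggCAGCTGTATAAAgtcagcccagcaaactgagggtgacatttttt
Reln promoter, chr5:22344656-22344955, minus strand: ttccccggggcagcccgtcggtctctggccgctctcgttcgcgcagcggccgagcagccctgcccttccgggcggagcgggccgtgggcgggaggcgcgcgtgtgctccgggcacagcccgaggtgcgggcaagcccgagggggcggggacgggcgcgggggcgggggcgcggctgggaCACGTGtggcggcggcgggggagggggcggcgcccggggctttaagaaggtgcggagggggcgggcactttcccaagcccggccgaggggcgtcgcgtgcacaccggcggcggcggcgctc
Lrat promoter, chr3:82903925-82904224, minus strand: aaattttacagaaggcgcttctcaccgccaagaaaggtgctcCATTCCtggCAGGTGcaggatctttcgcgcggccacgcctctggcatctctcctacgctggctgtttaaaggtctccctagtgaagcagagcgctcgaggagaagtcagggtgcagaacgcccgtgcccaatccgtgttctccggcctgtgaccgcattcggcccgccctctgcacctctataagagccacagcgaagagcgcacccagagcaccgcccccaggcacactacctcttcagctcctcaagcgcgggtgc
CANNTG, the E-box read by many basic helix-loop-helix factors, occurred in at least 1 promoter of each of the 7 markers. *Hgf* had 2 promoters, and its second held none. Of the 32851 mouse promoters searched in the same way, 72.3% had the motif. The *Dpt* promoter held 7 E-boxes, the *Des* promoter 2, and the *Reln* and *Lrat* promoters 1 each. The E-box of *Reln* was the palindrome CACGTG, a special case of CANNTG found in 7.15% of all promoters. *Dpt* and *Ecm1* had a TATAAA (13.6% of promoters), *Ecm1* the AP-1 motif TGANTCA (7.81%), and *Lrat* the TEAD motif GGAATG, read on the opposite strand (14.7%). AGGTCA, a nuclear receptor core (16.3%), and the homeobox core TAATTA (5.29%) were in none of the windows of these 7 markers. These matches describe the letters in the windows and were not tied to any measurement.

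Per exon length, *Ecm1* was by far the most abundant of the markers in the WPF livers, at 72.6 ± 1.9 FPKM (SD, n = 3). *Colec11* (9.40 ± 2.72 FPKM) and *Dcn* (7.08 ± 2.57 FPKM) followed, with ranges that overlapped each other but lay apart from *Ecm1* above and *Des* below. *Des* stood at 2.44 ± 0.125 FPKM. *Dpt*, *Lrat*, *Lum*, *Pdgfrb* and *Reln* formed a group of similar level, from 1.58 FPKM for *Dpt* to 0.983 FPKM for *Reln*, in which no neighbours differed beyond their ranges. *Hgf* was the lowest at 0.140 ± 0.078 FPKM. In the KPF livers *Ecm1* had the highest mean, at 87.0 ± 35.8 FPKM, with a range that overlapped that of *Des* (48.4 ± 69.8 FPKM, up to 129 FPKM in replicate 2), and *Hgf* was again last, at 0.280 ± 0.304 FPKM. *Dpt* (9.22 ± 5.29 FPKM) there lay within the range of *Dcn* (11.0 ± 6.84 FPKM), and *Lrat* (0.937 ± 0.176 FPKM) lay apart from *Reln* (1.49 ± 0.503 FPKM). All 10 markers passed the minimum of 10 reads per library on average.

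**Figure D1:**
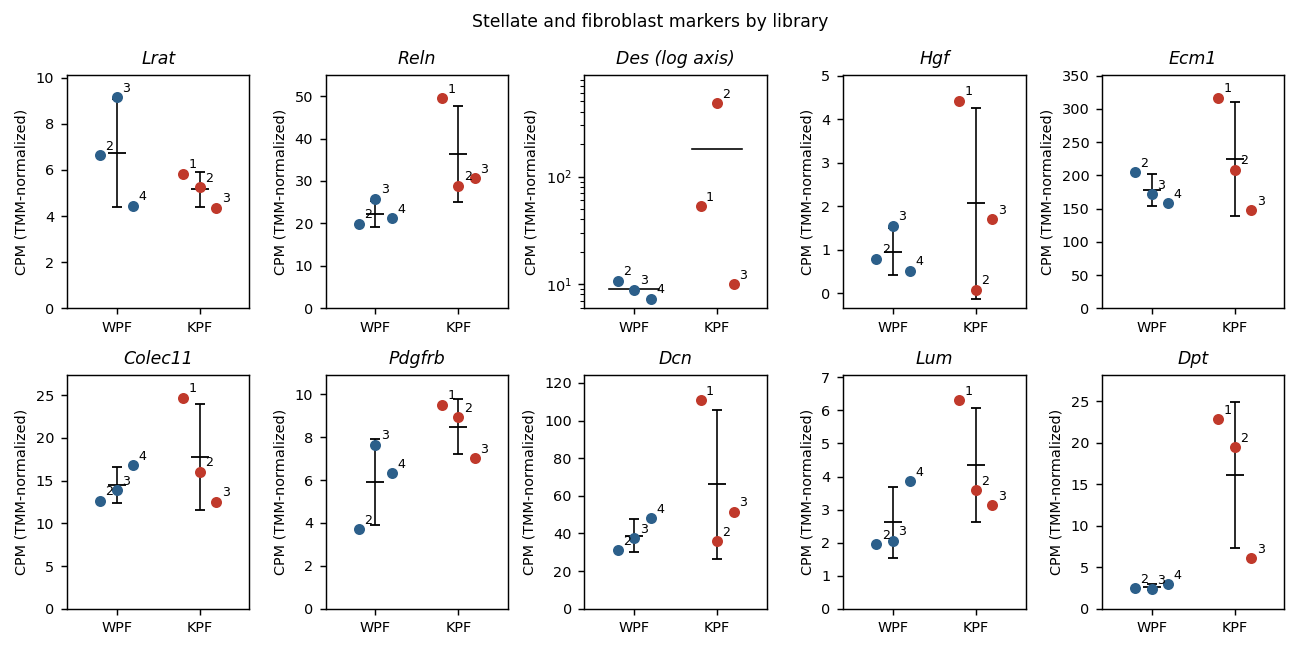
CPM of the 10 markers in each library, with 3 WPF (blue) and 3 KPF (red) dams numbered by replicate; black bars are the group mean and SD, and the log axis of *Des* carries the mean alone. Only *Reln* and *Dpt* have every KPF point above every WPF point, and KPF replicate 1 is the highest point for 8 of the 10 markers.

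Of the 10 markers, 9 had a log2 fold change above 0 in KPF over WPF, where 52% of the 14138 genes tested did. At least 1.5-fold higher were 6 markers (16.1% of all genes tested) and at least 1.5-fold lower none (9.19% of all genes), with no test applied. Every KPF library was above every WPF library for 2 markers, *Reln* and *Dpt*, as for 7.48% of all genes, and below for none, as for 8.04%. Since the markers were chosen with this contrast known, nothing is read from these shares. The median log2 fold change was 0.52 for the stellate markers and 0.77 for the fibroblast markers, beside 0.02 for all genes. Much of this came from a single library. KPF replicate 1 was the highest of the 6 libraries for 8 of the 10 markers, and for 22.2% of all genes. Without it the stellate median was 0.0023, the fibroblast median 0.35, and 2 markers, *Des* and *Dpt*, remained at least 1.5-fold higher (14.5% of all genes). Without KPF replicate 2 the medians were 0.48 and 1.06, and 6 markers were at least 1.5-fold higher (14.9% of all genes).

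**Figure D2:**
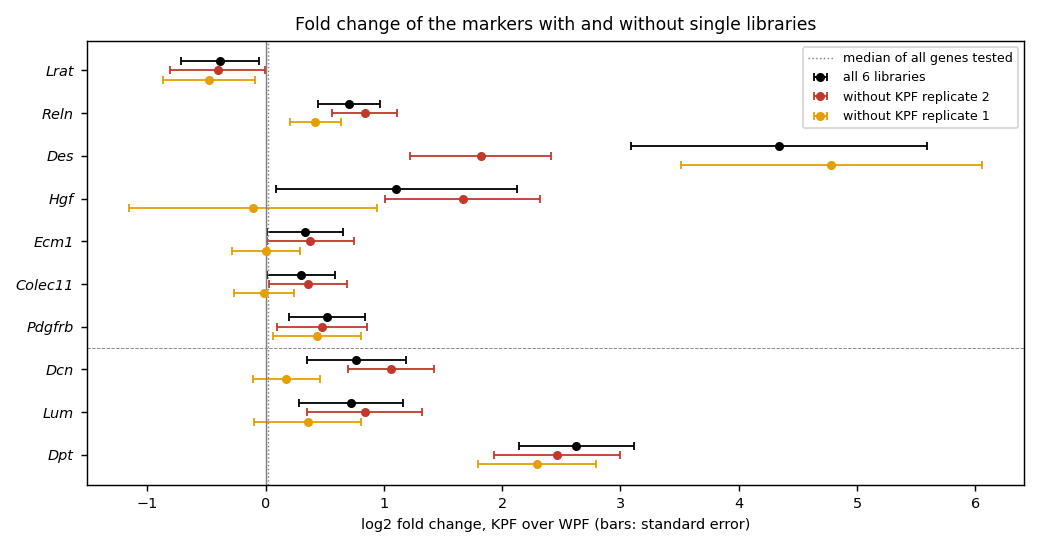
Log2 fold change of each marker, KPF over WPF, with its standard error, from all 6 libraries (black), without KPF replicate 2 (red) and without KPF replicate 1 (orange); the dotted line is the median of all genes tested. *Des* drops from 4.34 to 1.82 without KPF replicate 2, *Hgf*, *Ecm1*, *Colec11* and *Dcn* sit near 0 without KPF replicate 1, and *Dpt* stays above 2 in each case.

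*Lrat* (chr3:82799886-82811280, GRCm39, minus strand) encodes lecithin retinol acyltransferase, which makes the retinyl esters that stellate cells store. It was at 5.84, 5.26 and 4.37 CPM in KPF replicates 1, 2 and 3, against 6.64, 9.15 and 4.44 CPM in WPF replicates 2, 3 and 4. The groups overlapped, WPF replicate 3 was the highest library, and the log2 fold change was -0.38 (SE 0.33). *Lrat* was the only marker with a negative value, and it stayed negative without either of KPF replicates 1 (-0.48) and 2 (-0.41). Of 17 other genes that carry, store, release or respond to retinoids, 14 were tested, and 1 was called higher and 2 lower. A gene is called here when edgeR's quasi-likelihood test gave an unadjusted p under 0.05 with a change of at least 1.5-fold, which 6.11% of all genes met as higher and 3.93% as lower. None of the 14138 genes had an adjusted p under 0.05 by edgeR, although 1525 had an unadjusted p under 0.05, and DESeq2 gave 167 genes. *Pnpla3*, a lipase that cleaves triglycerides and retinyl esters, was called lower, at 1.22, 1.40 and 9.22 CPM in KPF and 89.2, 92.0 and 20.4 CPM in WPF (log2 fold change -4.09, SE 0.92). *Rdh11*, a retinal reductase, was called lower as well, at 17.1, 9.02 and 31.8 CPM against 69.1, 89.7 and 40.0 CPM (log2 fold change -1.78, SE 0.49). Both kept their call when any 1 of the 6 libraries was left out. *Lipe*, hormone-sensitive lipase, was called higher (log2 fold change 0.86, SE 0.34) but not without KPF replicate 1 or 2 or WPF replicate 2 or 3.

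*Reln* (chr5:22089452-22549700, GRCm39, minus strand) encodes reelin, a large secreted glycoprotein that stellate cells make in the liver. It was at 49.5, 28.9 and 30.7 CPM in KPF, against 19.9, 25.8 and 21.2 CPM in WPF. Every KPF library was above every WPF library, by a small margin for replicates 2 and 3, and the fold was 1.63 (log2 fold change 0.70, SE 0.26). The value was 0.84 without KPF replicate 2 and 0.42 without KPF replicate 1. Of the receptors and the adaptor of reelin (*Vldlr*, *Lrp8* and *Dab1*), only *Vldlr* had enough reads to be tested. It was at 4.24, 15.9 and 9.50 CPM in KPF and 13.3, 20.3 and 14.4 CPM in WPF (log2 fold change -0.70, SE 0.44) and was not called, except without KPF replicate 2, where the log2 fold change was -1.23. An exon of *Reln* shares 246 bases with *Gm10475* on the opposite strand in the GENCODE M21 annotation, and whether the counting used strand was not given in the sources used here.

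*Des* (chr1:75336973-75345223, GRCm39, plus strand) encodes desmin, the intermediate filament of muscle, which rodent stellate cells also carry. The reads counted on it were 565, 5495 and 105 in KPF replicates 1, 2 and 3 and 121, 125 and 125 in WPF. After scaling it was at 53.2, 481 and 9.98 CPM in KPF, against 10.7, 8.86 and 7.31 CPM in WPF. The WPF libraries were close to each other, KPF replicate 3 lay among them, and KPF replicate 2 was far above every other library. The log2 fold change of 4.34 (SE 1.25) was 1.82 without KPF replicate 2, and the groups overlapped in either case. In KPF replicate 2, where *Des* was highest, the striated muscle markers *Ckm* (512 CPM), *Acta1* (762 CPM) and *Tnnt3* (879 CPM) were at 3.98 CPM or less in every other library. *Actc1*, the cardiac actin, was the lowest of the 9 there, at 2.54 CPM. In KPF replicate 1, where *Des* was second, the striated markers summed to 6.60 CPM, within the range of the WPF libraries, but the smooth muscle markers were high, with *Acta2* at 53.0 CPM and *Myh11* at 47.9 CPM. What part muscle RNA had in the level of *Des* was not tested. The 5 genes with the most similar profile over the 6 libraries, by the root mean square difference of centred log2 CPM among 10287 genes, were *Tnnc1*, *Coro6*, *Hspb7*, *Flnc* and *Klhl33*, the nearest at 0.275. *Gm15179* shares 220 exon bases with *Des* on the opposite strand in GENCODE M21.

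**Figure D3:**
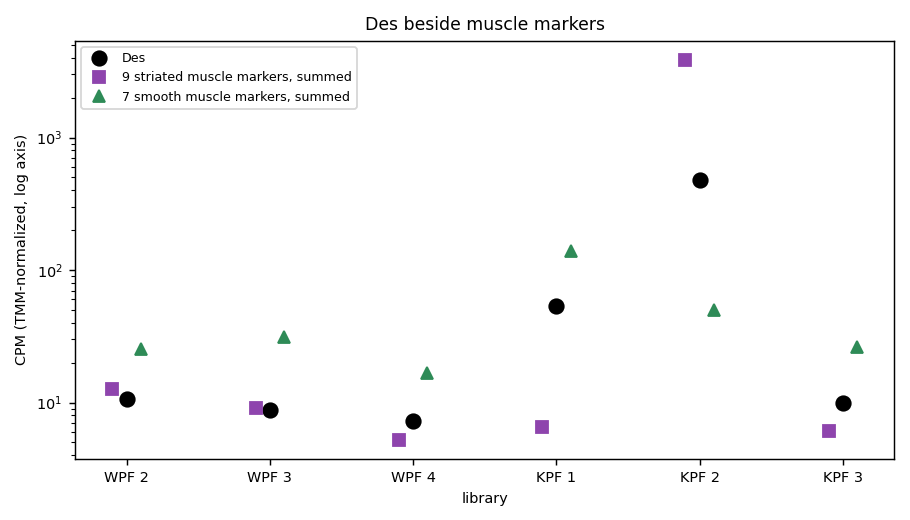
*Des* (black circles), the sum of 9 striated muscle markers (purple squares) and the sum of 7 smooth muscle markers (green triangles) in each of the 6 libraries, in CPM on a log axis. *Des* is highest in KPF replicate 2 (481 CPM), where the striated sum reaches 3864 CPM, and second in KPF replicate 1 (53.2 CPM), where the smooth muscle sum reaches 139 CPM.

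Among 10 intermediate filament genes and partners of desmin, 8 were tested and 2 were called higher. *Vim*, the vimentin of mesenchymal cells, was at 54.8, 38.9 and 29.8 CPM in KPF and 20.2, 23.5 and 22.4 CPM in WPF, without overlap (log2 fold change 0.90, SE 0.26), and it kept its call without each library in turn. *Synm*, the synemin that joins desmin in muscle, was at 8.15 CPM in KPF replicate 2 and at 0.942 CPM or less elsewhere, so that without this library it was below the read minimum. It was not called when any of the WPF libraries was left out either.

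*Hgf* (chr5:16758493-16825150, GRCm39, plus strand) encodes hepatocyte growth factor, which stellate and endothelial cells send to hepatocytes. It was counted with 47, 1 and 18 reads in KPF and 9, 22 and 9 reads in WPF, or 4.43, 0.0876 and 1.71 CPM against 0.797, 1.56 and 0.526 CPM. The single read in KPF replicate 2 has an exact Poisson 95% interval of 0.00222 to 0.488 CPM, which covers counting error only. It overlaps the intervals of WPF replicate 2 (0.364 to 1.51 CPM) and WPF replicate 4 (0.241 to 0.999 CPM). The highest and the lowest library were thus both KPF, and the log2 fold change of 1.10 (SE 1.02) was 1.66 without KPF replicate 2 and -0.10 without KPF replicate 1. Of 9 genes that activate, inhibit or receive HGF, 7 were tested and none was called, nor had any an unadjusted p under 0.05 by edgeR. *Met*, the receptor on hepatocytes, had a log2 fold change of 0.11 (SE 0.25). In GENCODE M21, *Hgf* shares 484 exon bases with *Gm43489* and *Ecm1* shares 63 with *Mir7014*, both on the same strand. How reads on these shared bases were counted was not given in the sources used here.

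*Ecm1* (chr3:95641459-95646881, GRCm39, minus strand) encodes extracellular matrix protein 1, a secreted protein that holds TGF-beta in its latent form. It was at 317, 209 and 148 CPM in KPF, against 205, 171 and 159 CPM in WPF. KPF held the highest and the lowest library, and the log2 fold change of 0.33 (SE 0.32) was 0.0023 without KPF replicate 1. Of 22 genes of TGF-beta ligands, latency, receptors and response, 19 were tested, 4 were called higher and 1 lower. *Ltbp1*, a latent TGF-beta binding protein, was at 5.75, 2.98 and 2.47 CPM in KPF and 1.59, 1.06 and 0.994 CPM in WPF (log2 fold change 1.62, SE 0.47), and kept its call without each library in turn. *Ltbp3* (log2 fold change 1.62, SE 0.51) was not called without KPF replicate 2. *Ltbp4* (log2 fold change 0.88, SE 0.32) was not called without KPF replicate 1 or 2 or WPF replicate 2. *Itgb6*, an integrin chain that frees TGF-beta, was called on KPF replicate 2 (6.13 CPM, 0.190 CPM or less elsewhere), and not when any of the WPF libraries was left out. The receptor *Tgfbr1* was called lower (log2 fold change -0.63, SE 0.25), but not without KPF replicate 2 or 3 or WPF replicate 2. *Tgfb1*, the main ligand, had a log2 fold change of 0.38 (SE 0.29). In all, 1 gene of this list was called higher without KPF replicate 2 and 2 without WPF replicate 2.

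*Colec11* (chr12:28644172-28673376, GRCm39, minus strand) encodes a collectin, a soluble lectin that starts the lectin pathway of complement. It was at 24.7, 16.0 and 12.5 CPM in KPF, against 12.7, 13.9 and 16.8 CPM in WPF. The groups overlapped, and the log2 fold change of 0.30 (SE 0.29) was -0.014 without KPF replicate 1. Its partner *Colec10*, with which it forms heteromers, had a log2 fold change of 0.33 (SE 0.24). Of 8 other collectins, ficolins and their proteases, 7 were tested and none was called, nor had any an unadjusted p under 0.05 by edgeR.

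*Pdgfrb*, the receptor by which platelet-derived growth factor drives stellate cells and pericytes to divide, was at 9.52, 8.94 and 7.03 CPM in KPF, against 3.72, 7.66 and 6.31 CPM in WPF. The overlap rested on KPF replicate 3 and WPF replicate 3, and the log2 fold change was 0.52 (SE 0.32), 0.48 without KPF replicate 2 and 0.44 without KPF replicate 1. Of the 4 ligands and the other receptor, 4 genes were tested and none was called, except 1 called higher without WPF replicate 4. The ligand *Pdgfb* had a log2 fold change of 0.99 (SE 0.64) and the receptor *Pdgfra* of 0.63 (SE 0.38). The ligand *Pdgfa*, with the smallest p of the list, lay the other way, at -1.05 (SE 0.57), and *Pdgfd* was at 0.02 (SE 0.44).

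*Dcn* (chr10:97315471-97354005, GRCm39, plus strand) and *Lum* (chr10:97400990-97408565, GRCm39, plus strand) are neighbours on the chromosome and encode decorin and lumican, small leucine-rich proteoglycans that bind collagen fibrils. *Dcn* was at 111, 36.0 and 51.6 CPM in KPF, against 31.0, 37.4 and 48.2 CPM in WPF. KPF replicate 1 was far above the rest and KPF replicate 2 was below 2 of the WPF libraries, so the log2 fold change of 0.77 (SE 0.42) was 0.17 without KPF replicate 1. *Lum* was at 6.31, 3.59 and 3.14 CPM in KPF, against 1.95, 2.06 and 3.86 CPM in WPF. KPF replicate 1 was again the highest library and WPF replicate 4 came next (log2 fold change 0.72, SE 0.44, and 0.35 without KPF replicate 1). Of 12 related proteoglycans, 9 were tested, and 3 were called higher, with a median log2 fold change of 1.04. *Bgn*, biglycan, was at 85.4, 37.0 and 36.4 CPM in KPF and 23.6, 22.8 and 30.9 CPM in WPF (log2 fold change 1.04, SE 0.37). *Prelp* (log2 fold change 1.02, SE 0.35) and *Ecm2* (log2 fold change 2.33, SE 0.76) had no overlap between groups either, but *Ecm2* was at 2.37 CPM or less in every library and met the read minimum through its KPF values. Neither *Bgn* nor *Prelp* was called without KPF replicate 1 or WPF replicate 2 or 3. None of the list was called higher without KPF replicate 1 and 1 without WPF replicate 2, while 6 were without KPF replicate 3.

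*Dpt* (chr1:164624213-164651835, GRCm39, plus strand) encodes dermatopontin, a small matrix protein of fibroblasts that binds decorin. It was counted with 242, 222 and 64 reads in KPF and 28, 33 and 51 reads in WPF, or 22.8, 19.5 and 6.08 CPM against 2.48, 2.34 and 2.98 CPM. The WPF libraries were alike, and the lowest KPF library was still above the highest of them. The fold was 6.17 (log2 fold change 2.62, SE 0.49), 5.52 without KPF replicate 2, and the log2 value was 2.29 without KPF replicate 1. With 3 dams in each group an exact two-sided permutation test cannot give less than p = 0.1, and no p is given for *Dpt*, which was chosen with this difference known.

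*Dpt* did not move in proportion to the other fibroblast markers, which can be read from reads counted in the same library and needs no scaling between libraries. The reads of *Dpt* per read of *Dcn* were 0.206, 0.540 and 0.118 in KPF and 0.0800, 0.0626 and 0.0619 in WPF, without overlap. *Lum* per read of *Dcn* was 0.0569, 0.0998 and 0.0608 in KPF and 0.0629, 0.0550 and 0.0801 in WPF, with overlap. Against *Lrat*, *Reln* was at 8.47, 5.50 and 7.02 reads per read in KPF and 3.00, 2.82 and 4.78 in WPF. *Des* and *Pdgfrb* per read of *Lrat* also lay higher in every KPF library than in any WPF library, whereas *Hgf*, *Ecm1*, *Colec11* and *Dcn* per read of *Lrat* overlapped. The mean of *Lrat* was lower in KPF (log2 fold change -0.38), which raises every ratio over it there. In CPM, *Des* and *Pdgfrb* by themselves overlapped between the groups. *Lrat* had only 46 to 129 reads, so the ratios over it carry its counting error. None of the ratios was tested, and how often those of other gene pairs lie apart was not counted.

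**Figure D4:**
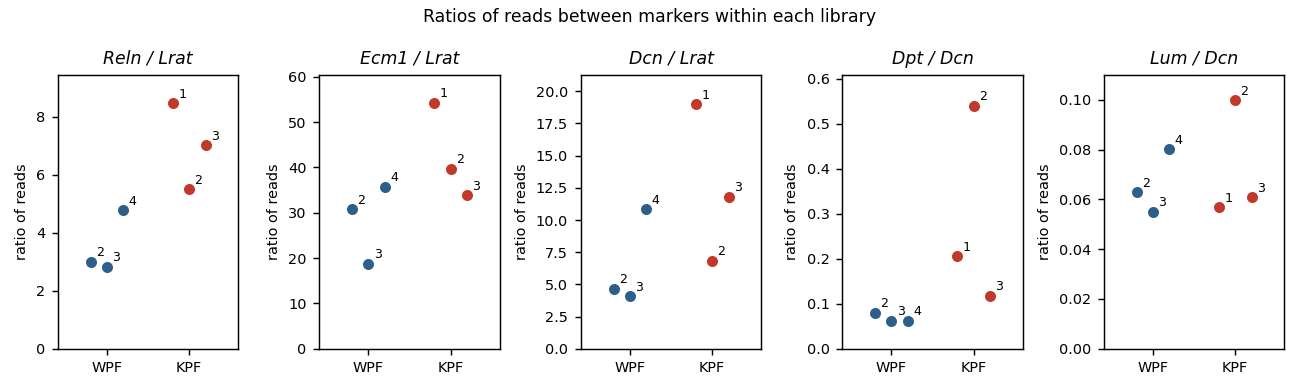
Ratio of reads between pairs of markers within each library, for 3 WPF (blue) and 3 KPF (red) dams numbered by replicate. *Reln* over *Lrat* and *Dpt* over *Dcn* are higher in every KPF library than in any WPF library, while *Ecm1* over *Lrat*, *Dcn* over *Lrat* and *Lum* over *Dcn* overlap.

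Of 16 genes of portal and connective tissue fibroblasts, collagens left out, 14 were tested, 9 were called higher and none lower, with a median log2 fold change of 1.34. *Clec3b*, tetranectin, was at 2.36, 6.22 and 0.665 CPM in KPF, against 0.0885 CPM or less in WPF, and it met the read minimum through its KPF values alone. *Pcolce*, which enhances the trimming of procollagen, was at 29.3, 28.4 and 23.1 CPM in KPF and 16.9, 12.8 and 15.0 CPM in WPF (log2 fold change 0.86, SE 0.21). *Cd34* was at 3.49, 7.10 and 1.9 CPM against 0.354, 0.922 and 1.05 CPM (log2 fold change 2.39, SE 0.63, and 1.75 without KPF replicate 2). The others among the 5 smallest p of the list were *Gsn*, gelsolin, and *Thy1*, a surface protein of portal fibroblasts (log2 fold change 1.35, SE 0.42). *Gsn* was at 29.7, 67.3 and 6.65 CPM in KPF, against 5.13, 4.89 and 7.02 CPM in WPF, with KPF replicate 3 inside the WPF range (log2 fold change 2.60, SE 0.71, and 1.67 without KPF replicate 2). *Pcolce*, *Cd34*, *Gsn* and *Thy1* kept their calls without each library in turn. Not every gene of the list was higher. *Entpd2*, an ectonucleotidase of portal fibroblasts, was at 1.70, 1.93 and 0.380 CPM in KPF, against 3.63, 2.27 and 1.75 CPM in WPF (log2 fold change -0.92, SE 0.62), and *Serpinf1* had a log2 fold change of -0.39 (SE 0.28), neither of them called. The count of the list was 6 without KPF replicate 2 and between 7 and 11 without each of the other libraries. Mesothelium is the cell layer that covers the liver. In KPF replicates 1 and 2, the libraries with the most *Dpt*, the summed markers of adipocytes and of mesothelium were highest too. The 6 adipocyte markers summed to 39.9, 58.9 and 9.69 CPM in KPF, against 12.0, 8.37 and 4.91 CPM in WPF. Of the list 2 genes were tested and both were called higher. The count was 1 without KPF replicate 2, 3 without WPF replicate 2, and 2 without each of the other libraries. *Cfd*, the adipsin of fat cells, was at 4.15, 17.1 and 1.24 CPM in KPF, against 0, 0.142 and 0 CPM in WPF, and met the read minimum through its KPF values alone. *Fabp4*, which endothelium also expresses, was at 34.3, 35.7 and 7.60 CPM in KPF, against 12.0, 7.94 and 4.85 CPM in WPF. Its groups overlapped, and it was not called without KPF replicate 2. Of the 4 genes below the read minimum, *Retn* was higher in every KPF library than in any WPF library, as were 7.48% of all genes tested. *Plin1* had 9, 12 and 1 reads in KPF and 0, 0 and 1 reads in WPF, so KPF replicate 3 was above WPF replicate 4 by scaling alone. *Adipoq* was at 0.283, 1.23 and 0 CPM in KPF, against 0, 0.213 and 0 CPM in WPF, and *Lep* was at 0 throughout. The 6 mesothelium markers summed to 9.05, 15.7 and 4.75 CPM in KPF, against 1.59, 4.11 and 1.58 CPM in WPF, and only *Msln* was tested and called higher, though not without KPF replicate 1 or 2 or WPF replicate 2 or 4. *Msln* gave 6.41 of the 9.05 CPM in KPF replicate 1. *Upk3b* and *Gpm6a* were likewise highest in KPF replicates 1 and 2, but *Upk1b*, *Wt1* and *Lrrn4* were not. The part of adipocyte and mesothelium RNA in the fibroblast genes was not tested.

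Of 24 genes of activated stellate cells and myofibroblasts, collagens left out, 18 were tested, 8 were called higher and none lower, with a median log2 fold change of 0.91. *Loxl1*, a collagen and elastin cross-linking enzyme, was at 3.58, 5.08 and 1.14 CPM in KPF and 0.531, 0.709 and 0.409 CPM in WPF (log2 fold change 2.56, SE 0.63). It had 6, 10 and 7 reads in WPF and met the read minimum through its KPF values. *Sparc*, a matrix protein, was at 64.4, 58.2 and 34.3 CPM against 26.8, 28.9 and 27.1 CPM (log2 fold change 0.92, SE 0.27). *Sparc* kept its call without each library in turn, as did *Vim* and *Thy1*, described above. *S100a6* (log2 fold change 1.38, SE 0.44) was not called without KPF replicate 2 or WPF replicate 4. *Acta2*, the alpha smooth muscle actin by which activated stellate cells are usually recognised, was not called. It was at 53.0, 14.5 and 4.56 CPM in KPF and 9.03, 12.1 and 2.98 CPM in WPF (log2 fold change 1.58, SE 0.85). The count of the list was 5 without WPF replicate 2, and between 6 and 11 without each of the other libraries. The list is not of stellate cells alone. *Tpm2*, which was called, was at 844 CPM in KPF replicate 2 and between 23.5 and 48.7 CPM elsewhere, and tropomyosin 2 is also a protein of striated muscle. It was called without KPF replicate 2 as well, with a log2 fold change of 0.71, but not without WPF replicate 2 or 3.

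Of 26 other genes known from quiescent stellate cells, 24 were tested and 2 were called higher, beside 6.11% of all genes, with a median log2 fold change of 0.39. *Prelp*, also counted with the proteoglycans, was at 17.8, 9.02 and 8.65 CPM in KPF and 5.40, 5.03 and 6.96 CPM in WPF. The count was 0 without KPF replicate 1 and also without WPF replicate 3, 1 without WPF replicate 2, and 3 without each of the other libraries.

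Over the 11 lists together, 118 of 143 genes were tested, and 26 were called higher (22% of those tested, beside 6.11% of all genes) and 3 lower (2.54%, beside 3.93%). Their adjusted p lay between 0.429 and 0.458 by edgeR's quasi-likelihood test, so that none passed after correction. Without KPF replicate 2, which held the muscle RNA, 18 were called higher, and 16 without KPF replicate 1 or WPF replicate 2. Of the 26, 7 had a mean under 10 reads in WPF and met the read minimum through KPF, where they were high (*Clec3b*, *Ecm2*, *Itgb6*, *Lox*, *Loxl1*, *Mfap4* and *Synm*), so nothing is read from their calls. Genes not called, such as *Fbln1*, *Aspn* and *Fmod*, also met it through KPF. The medians of their lists include all such genes, and nothing is read from those medians either. Among the other 19 called higher, the call held without each of the 6 libraries in turn for 7 (*Cd34*, *Gsn*, *Ltbp1*, *Pcolce*, *Sparc*, *Thy1* and *Vim*), named after their values were seen, and it did for 2 of the 3 lower genes. The lists were drawn up with earlier results of these libraries known, and the counts are given as a description.

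**Figure D5:**
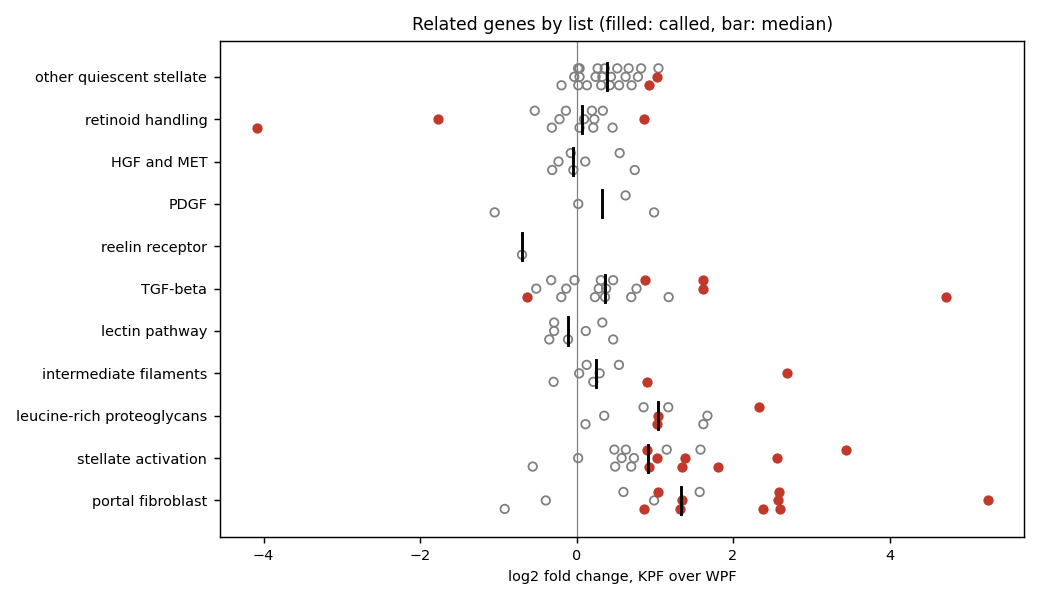
Log2 fold change, KPF over WPF, of the tested genes of the 11 related lists, 1 point a gene, with called genes filled in red and the median of each list as a black bar. The portal fibroblast (1.34), leucine-rich proteoglycan (1.04) and stellate activation (0.91) lists have the medians farthest to the right. In that order they were 0.98, 0.72 and 0.52 without KPF replicate 1, and 1.16, 0.59 and 0.92 without KPF replicate 2. These lists hold genes that met the read minimum through KPF, so nothing is read from the medians. The 2 called genes far to the left are *Pnpla3* and *Rdh11*.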

How the data were processed

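RNA-seq of the liver covered 3 dams of each genotype. The table the authors deposited gives counts of reads on each gene, not normalized, and FPKM values, which equal the count divided by exonic length and by library total (checked, 100% of values). The processing notes name cutadapt 1.9.1, HISAT2 2.2.1, HTSeq 0.6.1, DESeq2 and GRCm39; the annotation release and the strand setting are not given in the sources used here. Symbols came from GENCODE M21 (52073 of 56691 gene IDs matched, 4618 did not).

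Counts were tested with edgeR 4.0.16 (R 4.3.3; TMM, quasi-likelihood, Benjamini-Hochberg adjustment) on the 14138 genes with a mean of at least 10 reads per library. The minimum was set on reads because an FPKM minimum of 1 drops long, low genes (9 of the 10 markers pass it). SE is the fold change divided by the square root of F. A gene was called at an unadjusted p under 0.05 and 1.5-fold. The markers and gene lists were chosen with earlier results of these data known. Genes named are all markers, of each list the called genes (up to the 5 smallest p, plus those whose call a sentence turns on), the closest partners of a marker, and the 5 genes with the nearest profile to the stellate markers (50 reads or more on average); the profiles of *Des* alone and of the others without *Des* were added. The values of 2 genes that this rule names are not reported here. P-values measure the spread between dams, and the script was tested on simulated data. The alternatives were DESeq2 1.42.0, its size factors, library totals, other filters, limma 3.58.1 on log2(FPKM + 1) or + 0.1, the replicate block and leaving out each library; leaving out *Des* was added after seeing the data. Libraries held 10694496 to 14496630 counted reads, and no pair within a group agreed within sampling noise (chi-square per gene 38.1 to 115).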

Additional observations from a re-analysis of the deposited data

How the results depend on the processing

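The median log2 fold change of the fibroblast markers stayed above 0 in all 15 alternatives (0.35 to 1.11 without each library). That of the stellate markers, 0.52 from all libraries, ranged from 0.0023 to 0.75 without each library and was 0.43 without *Des*, and 0.43 without *Des* and KPF replicate 2. No scaling changed the direction of a marker, but *Hgf* (-0.10) and *Colec11* (-0.014) reversed without KPF replicate 1; without each library they ranged from -0.10 to 1.66 and from -0.014 to 0.49. Library totals in place of TMM moved the median of all genes from 0.02 to -0.08; the stellate median was then 0.39 and the fibroblast median 0.64. The share of calls that were higher was 60.8% with TMM, 41.8% with library totals, and 30.7% and 33% with limma on log2(FPKM + 1) and + 0.1. Genes called higher, 864, were 574 with library totals, 1576 without a filter, 239 and 388 with limma, and 445 to 1256 without each library. Genes called lower, 556, were 910 without a filter and 312 to 926 without each library. Related genes called higher, 26, were 15 with a mean FPKM of at least 1, 9 and 13 with limma, and 16 to 37 without each library. No gene had an adjusted p under 0.05 by edgeR, against 286 without a filter, 5 without WPF replicate 4 and 167 with DESeq2. The cause of these shifts was not tested. Below about 10 reads in a library, as for *Hgf*, depth limits what can be seen.

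Replicate numbers 2 and 3 occur in both groups but stand for different dams, and their deviations correlated at 0.0418 and -0.0669. With only these numbers shared, the correlations cannot show whether dams of the same number were handled together. The main fit used no pairing. With the replicate number as a block, the stellate median was 0.097, *Hgf* (-0.83) and *Ecm1* (-0.092) reversed, and 14 related genes were called higher. In this fit the difference between groups rests on replicates 2 and 3 alone, because KPF replicate 1 and WPF replicate 4 have no counterpart in the other group.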

Other observations

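Markers of other cell types of the liver were read beside the share of all genes called higher, 6.11%, and lower, 3.93%. Of 12 endothelial markers, all tested, 1 was called higher. It was *Pecam1*, at 14.1, 17.7 and 12.5 CPM in KPF and 9.21, 8.51 and 9.30 CPM in WPF (log2 fold change 0.72, SE 0.22), and it was not called without KPF replicate 2. Every KPF library was above every WPF library for *Pecam1* and *Fcgr2b*, as for 7.48% of all genes. Every KPF library was below for *Tek* (log2 fold change -0.33, SE 0.25) and *Stab2*, as for 8.04%. *Stab2* was at 25.3, 26.3 and 30.3 CPM in KPF and 33.8, 35.8 and 41.1 CPM in WPF. *Vwf*, which marks the endothelium of larger vessels, was highest in KPF replicate 1, at 70.5 CPM, the library that was also highest in the smooth muscle markers, against 5.78 to 28.4 CPM elsewhere. None of the 10 markers of Kupffer cells and macrophages was called by edgeR's quasi-likelihood test on all libraries, with sums of 197 to 270 CPM in KPF and 194 to 389 CPM in WPF, and 1 was called lower without KPF replicate 3. Their median log2 fold change was -0.24, with 3 above 0. *Cd5l* was lower in every KPF library than in any WPF library (log2 fold change -0.79, SE 0.34). None of the 5 tested cholangiocyte markers was called, with sums over all 6 markers of 49.9 to 60.5 CPM and 44.5 to 54.4 CPM. Of the 8 hepatocyte markers none was called on all libraries, and 1 was called lower without KPF replicate 2 and 1 without WPF replicate 4. The log2 fold change was above 0 for 4 of them. *Alb* was at 64249, 67503 and 89179 CPM in KPF, against 152335, 92242 and 89275 CPM in WPF (log2 fold change -0.60, SE 0.40). KPF replicate 3 and WPF replicate 4 were nearly equal. *Ttr* had a log2 fold change of -1.02 (SE 0.44), with overlap. Of the smooth muscle markers, 5 were tested and 2 were called higher, *Smtn* and *Myh11*. *Smtn* was at 16.1, 21.5 and 14.9 CPM in KPF and 6.02, 6.81 and 8.13 CPM in WPF, without overlap (log2 fold change 1.32, SE 0.24), and *Myh11* was at 47.9 CPM in KPF replicate 1 and 9.90 CPM or less elsewhere. The count was 1 without KPF replicate 1 or any of the WPF libraries, 3 without KPF replicate 2 and 5 without KPF replicate 3.

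The 5 genes with the profile nearest to the mean of the 7 stellate markers were *AC114539.1*, *Mast2*, *Palm*, *Ubn2* and *Mrpl41*, at a root mean square difference of 0.0862 to 0.105 in centred log2 CPM over the 6 libraries. Without *Des* they were *Pick1*, *Lrrc32*, *Arhgap39*, *Taf3* and *Ddx49* (0.0641 to 0.0885). No gene was in both sets.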
